A study of Mus musculus with 24 samples.

Results

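Epididymal fat of 12 adult male mice was divided into a high-leptin and a low-leptin set by the RNA level of Lep, the gene for leptin. The sets were chosen by the measured Lep values of the same RNA libraries: the 12 animals were ranked, and the 6 highest were set against the 6 lowest, with both prenatal exposures mixed. These 12 RNA libraries are among the 24 of the series, and each animal also gave 1 library of methylated DNA. All were CD-1 males, an outbred stock, kept to 19 weeks of age on chow with 4% fat. Dams of 6 animals were dosed orally with bisphenol A (BPA) at 500 ug per kg each day. Dams of the other 6 were given corn oil vehicle, and both were dosed over gestational days 9 to 18. Litters are not named in the labels, and the tests treat animals as independent.

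Leptin is a hormone that fat cells release into the blood and that acts on the hypothalamus to limit feeding. Larger fat cells are known to make more of it, and Lep RNA is for that reason often read as a stand-in for fat cell size. Fat cell size and body weight were not among the values used here, so the comparison is one of Lep RNA and of the RNAs that go with it. A difference between the sets is an association over 12 animals and not the effect of a treatment.

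Lep ranked 46 by mean value among 20624 genes, and it ranged from 8552 to 26072 normalized read counts, 3.05 times from the lowest to the highest animal. The high-Lep set ran from 17150 through a median of 19531 to 26072, and the low-Lep set from 8552 through a median of 14930 to 16968. The animals on either side of the cut, BPA animal 2 at 17150 and vehicle animal 3 at 16968, were almost equal. Vehicle animal 6, at 8552, lay far below the next lowest, BPA animal 4 at 13599. These values describe the choice, and the 2 sets were not tested against each other for Lep.

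**Figure D1:**
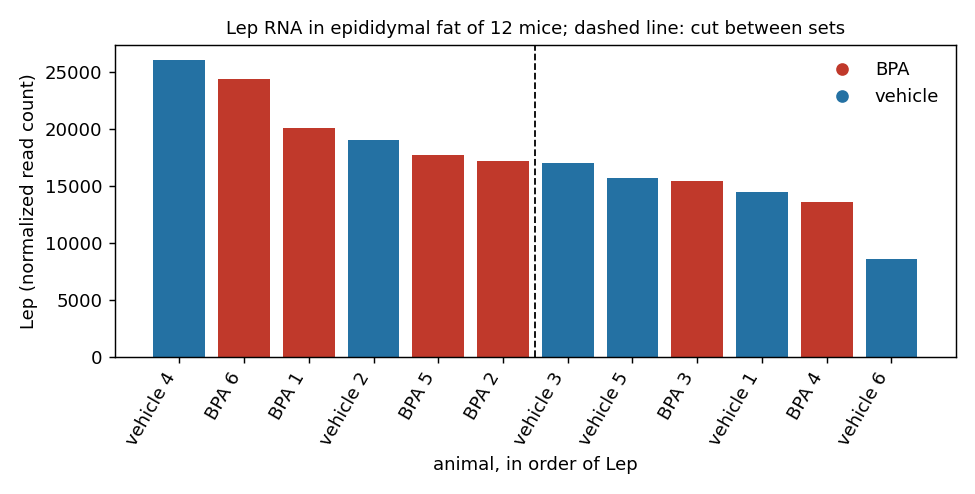
Lep as normalized read count (vertical axis) in each of the 12 animals in order of Lep (horizontal axis), red for BPA and blue for vehicle, with the cut between the sets dashed. The values run from 26072 to 8552, and the animals at the cut stand at 17150 and 16968.

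The high-Lep set held 4 BPA and 2 vehicle animals, and the low-Lep set 2 BPA and 4 vehicle animals. Lep itself was 18054 ± 3793 in BPA and 16782 ± 5756 in vehicle animals (SD, n = 6 each). The difference in mean log2(value + 1) was 0.16, smaller than the spread between animals (p = 0.571, two-sided exact permutation test over 924 arrangements). Without vehicle animal 6 the difference was -0.02.

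As a check of the tissue, white fat cell markers were high in every library. Adipoq, the gene for adiponectin, was between 22030 and 41685, and the fat cell markers Lipe, Plin, Cidec and Fabp4 were also abundant, with sets that overlapped for each. Transcripts of duct epithelium were present in libraries of both sets. Lrp2, an endocytic receptor of that epithelium, was 11906 in BPA animal 5 and 3303 in BPA animal 2 of the high-Lep set. It was 6882 in vehicle animal 6 of the low-Lep set. Elsewhere it was between 52 and 1219, with vehicle animals 5 and 2 at 1219 and 999. Which duct these transcripts came from was not tested. Ucp1, the brown fat uncoupling protein, was 1463 in BPA animal 3 and at most 39 in the other animals. In vehicle animal 3 the macrophage markers Emr1 and Cd68 stood at 2091 and 1916, against at most 816 and 800 elsewhere. The epididymis and germ cell list summed to 4850 in vehicle animal 6, 759 in vehicle animal 4 and at most 116 elsewhere. BPA animals 5 and 2, high in Lrp2, summed to 87 and 47 on this list.

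Promoter sequences are shown for Lep and for the pair of genes that followed it most closely in these animals, Rbm28 and Ptp4a1. They come from the RefSeq promoter table for GRCm38.p6, from 250 bases before to 50 after the gene start, 5′ to 3′ on the gene's strand, and are not from the mm9 build of the deposited files. Capitals mark 4 motifs searched on both strands: the E-box CACGTG, the CCAAT box, the GC box GGGCGG and the TATA box TATAAA.
Lep, chr6:29059971-29060270, plus strand: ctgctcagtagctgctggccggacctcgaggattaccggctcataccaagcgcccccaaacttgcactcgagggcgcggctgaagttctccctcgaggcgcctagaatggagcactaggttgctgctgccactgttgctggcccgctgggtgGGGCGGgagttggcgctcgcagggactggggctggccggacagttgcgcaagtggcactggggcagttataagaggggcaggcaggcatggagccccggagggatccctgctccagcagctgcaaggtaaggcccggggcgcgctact
Rbm28, chr6:29164675-29164974, minus strand: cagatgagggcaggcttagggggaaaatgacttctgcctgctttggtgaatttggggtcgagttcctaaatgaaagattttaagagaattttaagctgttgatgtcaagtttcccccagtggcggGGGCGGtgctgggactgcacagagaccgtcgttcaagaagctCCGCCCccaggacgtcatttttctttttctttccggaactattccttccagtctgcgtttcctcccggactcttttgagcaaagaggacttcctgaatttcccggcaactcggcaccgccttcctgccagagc
Ptp4a1, chr1:30949706-30950005, minus strand: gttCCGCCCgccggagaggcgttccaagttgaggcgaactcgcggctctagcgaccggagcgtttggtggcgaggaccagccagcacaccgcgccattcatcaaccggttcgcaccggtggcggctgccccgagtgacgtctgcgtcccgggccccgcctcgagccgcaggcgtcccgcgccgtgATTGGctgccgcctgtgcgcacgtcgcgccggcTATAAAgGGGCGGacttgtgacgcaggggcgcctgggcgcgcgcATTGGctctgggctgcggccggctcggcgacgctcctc
The GC box was the one motif of the search found in all 3 windows, and 35.7% of the 32851 promoters of the same length in the table hold it. The Ptp4a1 window also held the TATA box, found in 13.6% of promoters, and the CCAAT box, found in 37.4%. Only exact letters were counted, so a near match such as tataag in the Lep window is not marked. The E-box, found in 7.15% of promoters, was in none of the 3 windows. These are matches of letters and say nothing on which factor acts there.

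The first comparison asked which RNAs differ between fat with high and with low Lep. Of 12527 genes tested, none passed an adjusted p of 0.05 (0%, limma with Benjamini-Hochberg adjustment). At an unadjusted p under 0.05 stood 272 genes that were higher in the high-Lep set (2.17%) and 267 that were lower (2.13%). The values of the sets did not overlap in 19 genes that were higher (0.152%) and 11 that were lower (0.0878%). For a typical gene the 95% interval reached 0.33 log2 units to either side (the median over genes), so that a difference of that size was within its error.

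Of the genes with the smallest p in the upward direction, 4 are given here, with an adjusted p of 0.996 each (limma). Slc20a1, a sodium-dependent phosphate transporter, was between 646 and 805 with a median of 750 in the high-Lep set, and between 418 and 603 with a median of 499 in the low-Lep set. Axin2, a target and inhibitor of Wnt signalling, was between 603 and 829 with a median of 743, against 243 to 601 with a median of 379. Alas1, the first enzyme of heme synthesis, was between 1364 and 1874 with a median of 1486, against 964 to 1320 with a median of 1023. In these 3 genes the sets did not overlap, and the log2 differences were 0.56, 0.96 and 0.48. Spsb1, an adaptor of a ubiquitin ligase, had a log2 difference of 0.59, with sets that overlapped through vehicle animal 5.

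In the downward direction the smallest p belonged to 1110036O03Rik, Tmem140, Tpbg, Plat and 3110062M04Rik, each with an adjusted p of 0.996 (limma). Plat encodes tissue plasminogen activator, a protease that starts the breakdown of fibrin. It was between 211 and 272 with a median of 242 in the high-Lep set, and between 283 and 378 with a median of 322 in the low-Lep set, without overlap. Its log2 difference was -0.41 (95% interval -0.63 to -0.19). Tpbg, a surface glycoprotein that inhibits Wnt signalling, had low values, 9.93 to 21.2 against 17.8 to 53.0, and a log2 difference of -1.08. Tmem140 and 3110062M04Rik, now named Cyren, overlap each other in the RefSeq table and had like differences of -0.49 and -0.47. Whether strand was used in counting is not given in the sources used here. Their reads may be shared, and both are uncertain.

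Taking log2 Lep as a number in place of sets uses the same Lep values and the distance between animals. This fit was reported as a result of its own after its calls had been seen. It called 3 of 12527 genes (0.0239%, limma, adjusted p under 0.05), all with a positive slope, and 1350 genes had an unadjusted p under 0.05. That number was 582 without vehicle animal 6 and 699 without the 3 libraries highest in duct transcripts. A slope of 1 means that a gene doubles when Lep doubles. Each gene shares its library and that library's scaling with Lep.

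Rbm28, an RNA-binding protein of the nucleolus, had the closest relation. It ran from 3473 through a median of 3759 to 5127 in the high-Lep set, and from 1751 through 2752 to 3339 in the low-Lep set. The sets did not overlap, and vehicle animal 6 was lowest in both Rbm28 and Lep. The slope was 1.01 (95% interval 0.80 to 1.23; adjusted p = 0.00134, limma), and Rbm28 amounted to 16.1% to 21.2% of the Lep value in each of the 12 libraries. In the RefSeq gene order Rbm28 is the next gene after Lep among those in the table, and the annotated genes do not overlap. The gene before Lep, Snd1, had a slope of 0.03 (95% interval -0.21 to 0.26), and the one after Rbm28, Impdh1, a slope of 0.23 (95% interval -0.22 to 0.69). How the authors assigned reads between neighbouring genes is not given in the sources used here, and whether reads of Lep were counted for Rbm28 was not tested.

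Ptp4a1, a protein tyrosine phosphatase also named Prl-1, was between 657 and 1100 with a median of 853 in the high-Lep set, and between 325 and 834 with a median of 661 in the low-Lep set. The sets overlapped, with vehicle animal 6 alone at the low end. Its slope was 1.02 (95% interval 0.76 to 1.27; adjusted p = 0.00445, limma). Fmr1, the RNA-binding protein that is lost in fragile X syndrome, was between 7234 and 11106 with a median of 9578 in the high-Lep set, and between 3381 and 7124 with a median of 6368 in the low-Lep set. The sets of Fmr1 did not overlap. Its slope was 1.05 (95% interval 0.75 to 1.36; adjusted p = 0.0155, limma).

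These 3 calls rested on vehicle animal 6, which is lowest in Lep. It is also among the 3 libraries highest in duct transcripts and the highest in epididymis and germ cell transcripts. Without it none was called: Rbm28 then had a slope of 1.12 (adjusted p = 0.0665, limma), Ptp4a1 of 0.84 (adjusted p = 0.572) and Fmr1 of 0.93 (adjusted p = 0.759). Without the 3 libraries highest in duct transcripts none was called either, at slopes of 1.13, 0.83 and 0.93. The call of Fmr1 was also lost without BPA animal 6 (adjusted p = 0.0749, limma), with quantile normalization (adjusted p = 0.105) and with no filter on low values (adjusted p = 0.0613).

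Klf14, named after its values had been seen, and Mest are imprinted genes. Klf14, a transcription factor tied to fat cell size in humans, was between 121 and 401 in the high-Lep set and between 104 and 165 in the low-Lep set. Its slope was 1.24 (95% interval 0.75 to 1.72; adjusted p = 0.126, limma) and 1.82 without vehicle animal 6 (adjusted p = 0.0913). Mest, which marks fat mass expansion in mice, was between 4256 and 13951 with a median of 9817, against 4061 to 9514 with a median of 5162. The sets of Mest overlapped, with BPA animals 5 and 2 of the high-Lep set near its bottom. Its slope was 0.99 (adjusted p = 0.406, limma). Its log2 difference was -0.30 among BPA animals alone (4 high, 2 low) and 1.52 among vehicle animals alone (2 high, 4 low). These are few animals, and no gene was called for a dependence on exposure, as given below.

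**Figure D2:**
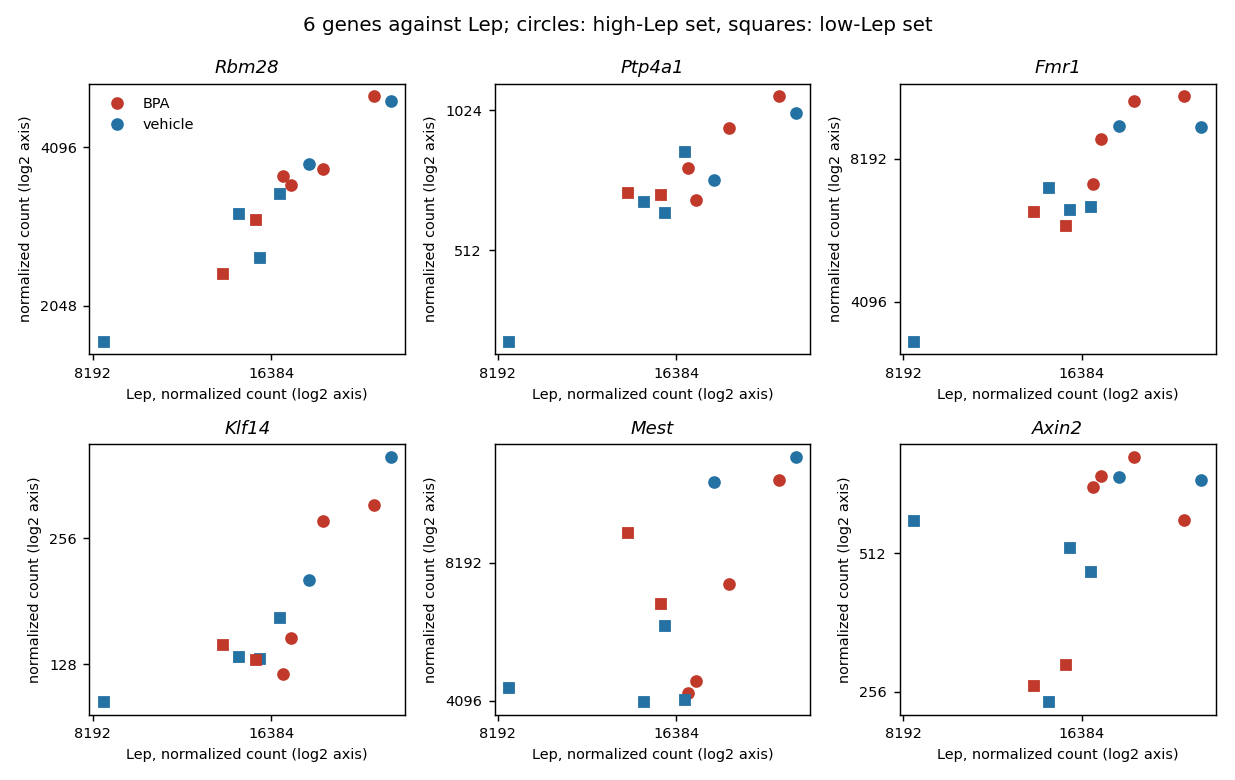
Normalized read counts of 6 genes (vertical axes, log2) against Lep (horizontal axes, log2) in the 12 animals, circles for the high and squares for the low-Lep set, red for BPA and blue for vehicle. Rbm28 follows Lep with a slope of 1.01, and in Axin2 the high-Lep set (603 to 829) lies above the low-Lep set (243 to 601).

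The gene lists below are described by the number of members on each side and by their median log2 difference, high minus low. Over all 12527 genes the median was -0.0027 and 50.7% were lower in the high-Lep set. No member of any list was called. In a bulk tissue sample fewer cells of a type and less RNA per cell cannot be told apart.

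Genes of leptin signalling stood near 0. Of 11 tested, 3 were higher and 8 lower, with a median of -0.06, and none had an unadjusted p under 0.05. The receptor Lepr was between 126 and 337 in the high-Lep set and between 138 and 481 in the low-Lep set, a log2 difference of -0.01 (95% interval -0.67 to 0.64). The kinase Jak2 (0.03) and the transcription factor Stat3 (-0.08), which carry the signal from the receptor, and Socs3 (-0.30) and Ptpn1 (-0.09), which damp it, had intervals that included 0. Without vehicle animal 3 these took 0.07, 0.02, -0.07 and 0.12. Over all 12 libraries Leprot (0.02), Leprotl1 (-0.06), Sh2b1 (0.06), Irs2 (-0.16), Stat5a (-0.18) and Stat5b (-0.03) also had intervals that included 0.

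Of 16 other secreted products of fat, the adipokines, 9 were higher and 7 lower, with a median of 0.03. Angptl4, an inhibitor of lipoprotein lipase, was between 1195 and 2836 with a median of 2253 in the high-Lep set, and between 2587 and 4499 with a median of 3256 in the low-Lep set, a log2 difference of -0.74 (unadjusted p = 0.00366, adjusted p = 0.996, limma). The sets of Angptl4 overlapped between 2587 and 2836. Adipoq had a log2 difference of 0.02 (95% interval -0.37 to 0.41), with sets that overlapped. Retnla had -0.39, Metrnl -0.35, Nampt 0.22, Apln 0.16, Rarres2 -0.16, Nrg4 0.12, Retn 0.09, Sfrp5 0.09, Rbp4 0.04, Agt 0.04 and Cfd -0.03. Lcn2 (-0.42) and Ccl2 (-0.38) had the widest intervals of the group: Lcn2 was 3063 in BPA animal 5, and Ccl2 was 431 in vehicle animal 3. Without vehicle animal 6 Lcn2 took 0.14, and without vehicle animal 3 Ccl2 took 0.10.

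Of 11 genes linked to fat cell expansion, 8 were higher and 3 lower, with a median of 0.05. Beside Mest (0.58, unadjusted p = 0.099), Npr3, the clearance receptor for natriuretic peptides, was between 27374 and 51620 in the high-Lep set and between 18856 and 38890 in the low-Lep set, a log2 difference of 0.26. The others lay between -0.35 for Rgs2 and 0.21 for Wisp2, with Sfrp1 at -0.15, Fgf1 at -0.22, Tnmd at 0.10, Zfp423 at 0.05, Bmp3 at 0.03 and Nnat at 0.01.

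Lipid storage genes had medians near 0 between the sets, with a few members further out, and mostly positive slopes on log2 Lep, which are given after the lists. Of 19 genes of fatty acid synthesis, 12 were higher (median 0.02). Pnpla3, a lipid droplet enzyme, was between 5780 and 9874 with a median of 7305 in the high-Lep set, and between 4006 and 6977 with a median of 4958 in the low-Lep set, a log2 difference of 0.56 (unadjusted p = 0.00438, adjusted p = 0.996, limma). Thrsp, a regulator of fat synthesis, had a log2 difference of 0.62, Mlxipl, the glucose-responsive factor ChREBP, 0.39, and Pgd 0.21. In Fasn, the fatty acid synthase, the sets covered nearly the same range and the difference was 0.01. Fatty acid uptake and triglyceride assembly had 11 of 19 higher (median 0.11), led by Dgat2, the last enzyme of triglyceride synthesis, at 0.35. Lipid droplet and lipolysis genes had 10 of 17 higher (median 0.01), and 3 of 8 caveolae genes were higher (median -0.04), with Cav1 at 0.16 and Ptrf at -0.51.

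Pparg, the master regulator of fat cell formation, was between 2827 and 6147 with a median of 5086, against 2862 to 4182 with a median of 3481, a log2 difference of 0.36 (95% interval -0.04 to 0.75). Its list of adipogenic factors had 5 of 14 higher (median -0.05). Among 18 genes of insulin signalling 12 were higher (median 0.06): Pik3r1, the regulatory subunit of PI3 kinase, stood at 0.51 and Grb14, an inhibitor of the insulin receptor, at 0.38, while Pdk4, which shuts off glucose oxidation, stood at -0.77. Each of these 3 had an unadjusted p under 0.05 and an adjusted p of 0.996 (limma). Adrenergic signalling had 8 of 16 higher (median 0.00).

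Mitochondrial genes went both ways by small amounts, and hypoxia genes were mostly higher. Of 29 genes of oxidative phosphorylation 22 were higher (median 0.06). Of 14 hypoxia response genes 13 were higher (median 0.10), among them Hif1a at 0.28, Bnip3 at 0.28 and Hk2 at 0.20. Slopes on log2 Lep were positive in 9 of these 14 (median 0.13), and in 8 without vehicle animal 6 (0.20). Fatty acid oxidation had 14 of 19 lower (median -0.05), with Hadha at -0.14 and Cpt1a at -0.13, but its median slope on log2 Lep was 0.09. In the brown and beige fat list 8 of 9 were lower (median -0.15), with BPA animal 3, the animal with 1463 for Ucp1, in the low-Lep set. Without that animal the median was 0.08.

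Cholesterol synthesis held 8 of 14 higher (median 0.02), with Sc5d at 0.33 and Insig1, a brake on sterol synthesis, at 0.41, but Fdft1, squalene synthase, at -0.35. The median of this list was -0.20 without the 3 libraries highest in duct transcripts. Of 18 clock genes 11 were higher (median 0.08), with the repressors Per1 at 0.37 and Per2 at 0.61. The time of day of dissection is not given in the sources used here. ER stress genes (8 of 16 higher, median 0.01, Atf4 at 0.32), immediate early and heat shock genes (8 of 18 higher, median -0.02), cytosolic ribosomal proteins (8 of 12 higher, median 0.01) and imprinted growth genes (9 of 14 higher, median 0.02, Meg3 at -0.67) were mixed. Steroid receptor and conversion genes had 9 of 11 higher (median 0.16), with Fkbp5 at 0.32 and Gper at 0.39. Their slopes on log2 Lep were positive in 5 of 11 (median -0.03), and in 7 without vehicle animal 6 (0.24).

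Genes of the connective tissue of fat were mostly lower in the high-Lep set. Of 15 fat progenitor genes 14 were lower (median -0.23), and their summed level was between 14857 and 20382 in the high-Lep set and between 19560 and 34773 in the low-Lep set. The sums overlapped in vehicle animals 1 and 6 of the low-Lep set. Without vehicle animal 3, which has the highest sum, the median was -0.27. Of 27 collagen and matrix genes 23 were lower (median -0.19), and -0.10 without vehicle animal 3. Fbn1, the microfibril protein fibrillin 1, also in the progenitor list, was between 7168 and 11840 with a median of 10351 in the high-Lep set, and between 10847 and 25980 with a median of 15525 in the low-Lep set, a log2 difference of -0.62 (unadjusted p = 0.00674, adjusted p = 0.996, limma). Thbs1 stood at -1.04, Col6a1 at -0.33 and Postn at -0.29.

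Immune genes were also mostly lower, and vehicle animal 3, in the low-Lep set, had the highest levels of many of them. Of 22 macrophage genes 21 were lower (median -0.33), and the summed level was between 13202 and 18685 in the high-Lep set and between 14193 and 20559 in the low-Lep set outside vehicle animal 3, which stood at 44516. Without that animal the median was -0.08, and the median slope on log2 Lep was 0.01 (-0.20 without vehicle animal 6). The receptor Csf1r had a log2 difference of -0.32, the complement subunit C1qc -0.40 and the mannose receptor Mrc1 -0.29, against -0.17, -0.23 and -0.15 without vehicle animal 3. The lists of lipid-associated macrophages (12 of 15 lower, -0.27), cytokines (8 of 12 lower, -0.38), MHC genes (14 of 16 lower, -0.23), interferon response (16 of 19 lower, -0.22), lymphocytes (10 of 12 lower, -0.24) and cell cycle (13 of 15 lower, -0.23) had medians of -0.11, 0.12, 0.04, -0.01, -0.04 and 0.03 without vehicle animal 3. Among BPA animals alone (4 high, 2 low) the macrophage median was 0.08. The other lists, in the same order, then took -0.13, 0.14, 0.04, 0.12, 0.13 and 0.0006. Among vehicle animals alone (2 high, 4 low), with vehicle animal 3 included, the macrophage median was -0.49. The other lists then took -0.62, -0.64, -0.44, -0.47, -0.59 and -0.33.

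Complement was lower in 12 of 14 (median -0.30, and -0.12 without vehicle animal 3). C3, its central component, was between 10403 and 17154 with a median of 10846 in the high-Lep set, and between 9062 and 35569 with a median of 20268 in the low-Lep set. The low-Lep set spread widely, with BPA animal 4 below every animal of the high-Lep set. The log2 difference was -0.74 (unadjusted p = 0.0204, adjusted p = 0.996, limma), and -0.61 without vehicle animal 3.

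All 10 tested mesothelium genes, which mark the outer lining of the fat pad, were lower in the high-Lep set (median -0.79). Their summed level was between 586 and 2643 with a median of 1347 in the high-Lep set, and between 825 and 5233 with a median of 2472 in the low-Lep set. The sums overlapped, and the highest were vehicle animal 1 at 5233 and BPA animal 3 at 4106. Msln stood at -1.15 and Upk1b at -1.58, with wide intervals (-2.21 to -0.10 and -2.97 to -0.18; adjusted p = 0.996 each, limma). The list median was between -1.19 and -0.52 when each library was left out in turn. It was -0.51 with exposure as a covariate, -0.62 among BPA animals alone and -0.43 among vehicle animals alone. Smooth muscle genes had 11 of 12 lower (median -0.30), with the highest sum, 47235, in BPA animal 3, and a median of -0.12 without it.

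Endothelial genes had 12 of 17 higher (median 0.08), with Egfl7 at 0.43. Duct epithelium genes (8 of 11 higher, median 0.15) and motile cilia genes (6 of 7 higher, median 0.20) changed direction with single libraries. Their medians were 0.71 and 0.96 without vehicle animal 6, and -0.21 and -0.13 without BPA animal 5. Without the 3 libraries highest in duct transcripts they were -0.19 and -0.06. Erythroid genes had 3 of 4 higher (median 0.01), but Hbb-b1 and Hbb-b2 among them had the same values in every library and are 1 signal. The 3 skeletal muscle genes tested were lower (median -0.32), and the 1 gene tested from the epididymis and germ cell list, Gapdhs, had -0.56.

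On log2 Lep as a number the lists took other counts. Over all genes 6262 of 12527 slopes were positive, and without vehicle animal 6 the number was 6106. Slopes were positive in 15 of 17 lipid droplet and lipolysis genes (median 0.29), 14 of 19 of fatty acid synthesis (0.20), 14 of 19 of uptake and triglyceride assembly (0.21) and 27 of 29 of oxidative phosphorylation (0.12). Without vehicle animal 6 these were 12 (0.07), 15 (0.16), 12 (0.15) and 27 (0.13). Slopes were also positive in 8 of 11 fat cell expansion genes (median 0.33), 12 of 16 adipokines (0.29) and 14 of 18 insulin signalling genes (0.20). Without vehicle animal 6 the numbers for these lists were 9 (0.16), 11 (0.18) and 14 (0.17).

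Several lists pointed the other way on log2 Lep than between the sets. Slopes were positive in 8 of 11 leptin signalling genes (median 0.10), 13 of 19 of fatty acid oxidation (0.09), 12 of 16 MHC genes (0.18) and 9 of 12 cytokine genes (0.24), and without vehicle animal 6 in 5 (-0.05), 8 (-0.05), 8 (0.04) and 8 (0.23). Slopes were negative in 10 of 11 duct epithelium genes (median -1.46) and 7 of 7 motile cilia genes (-1.90), with vehicle animal 6 both lowest in Lep and rich in these transcripts, and the medians were -0.31 and -0.81 without it. All 10 mesothelium genes had negative slopes (median -1.01, and -1.40 without vehicle animal 6), the same side as between the sets. Fat progenitor genes were negative in 13 of 15 (median -0.11), and in 15 of 15 without vehicle animal 6 (-0.39).

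**Figure D3:**
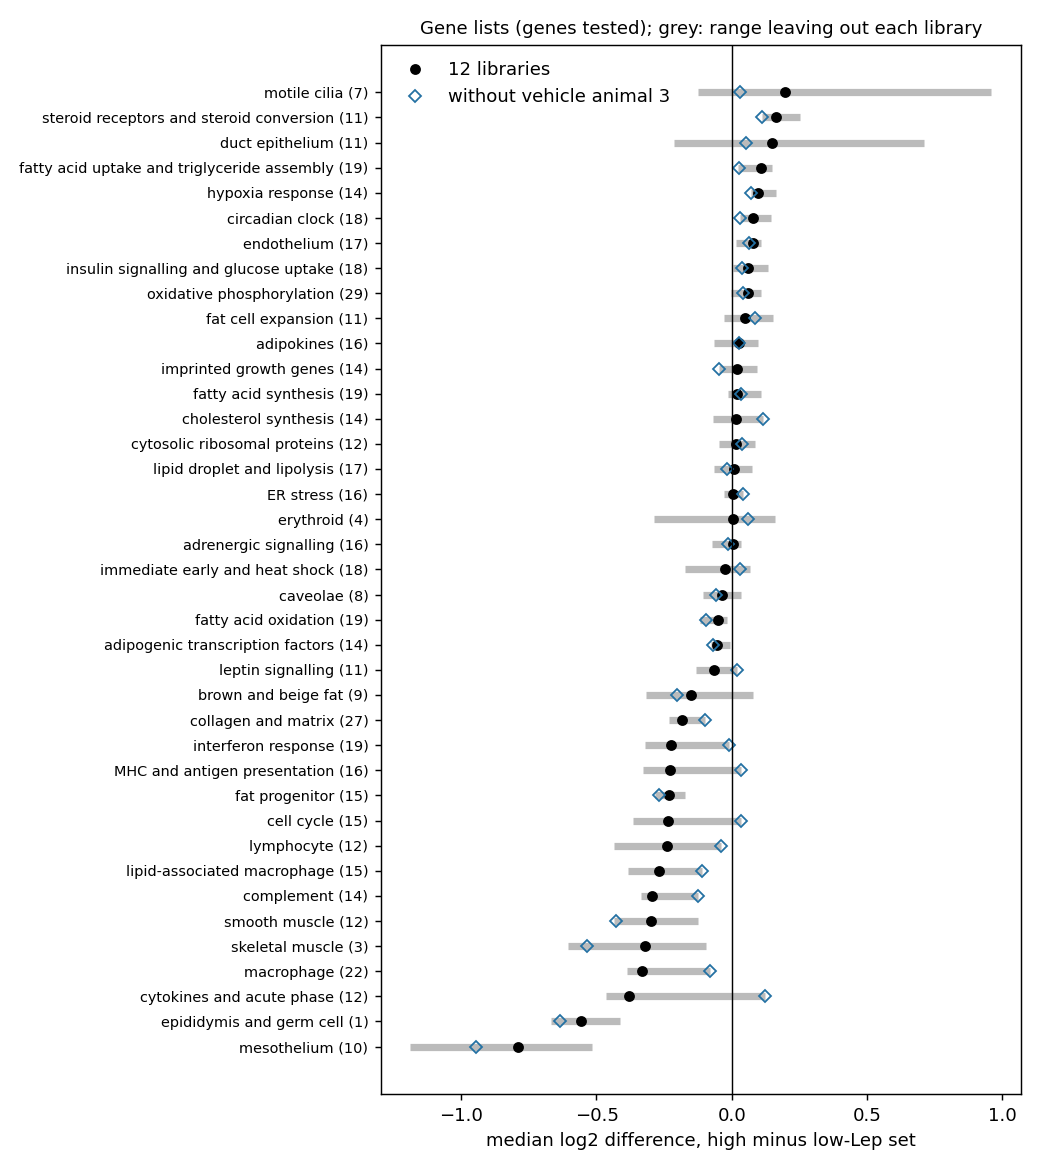
Median log2 difference, high minus low-Lep set (horizontal axis), for 39 gene lists with the number of genes tested, for all 12 libraries (black) and without vehicle animal 3 (open blue), with the range over leaving out each library in grey. The macrophage median moves from -0.33 to -0.08 and the mesothelium median from -0.79 to -0.94.

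**Figure D4:**
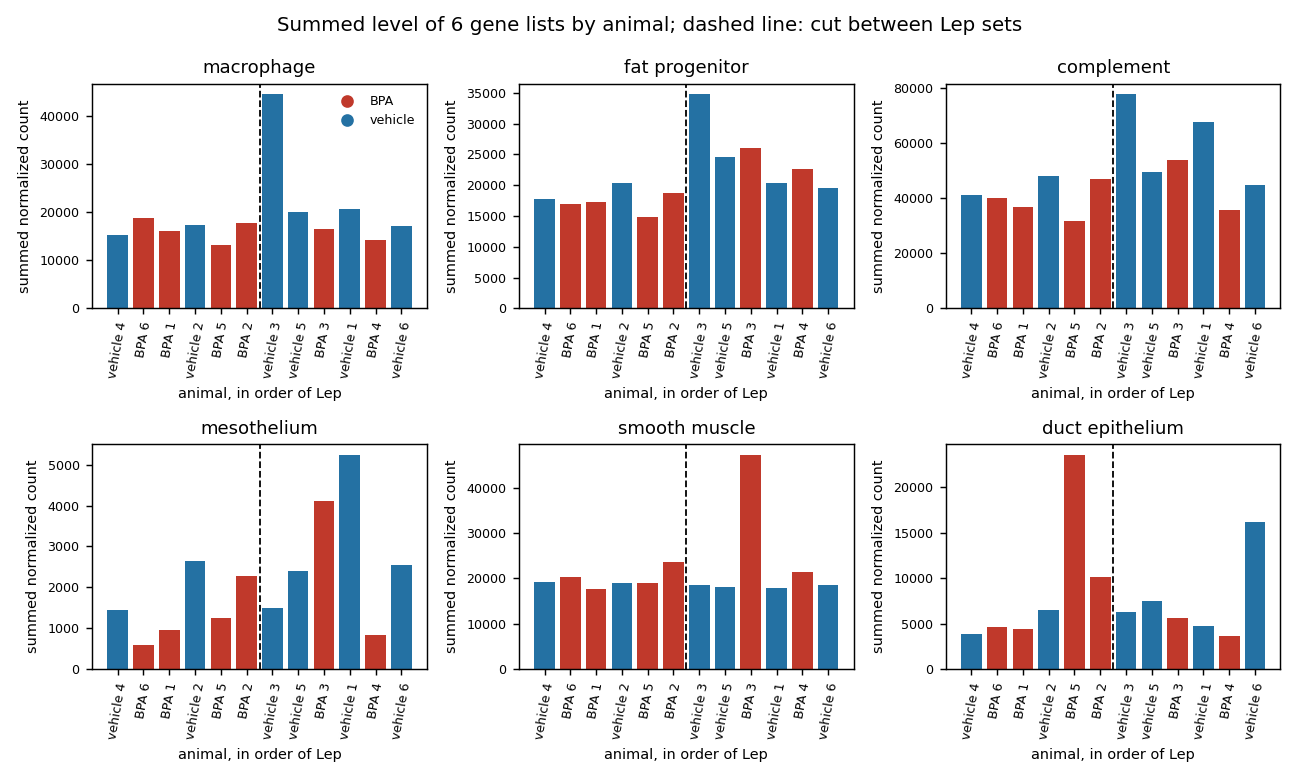
Summed normalized read count of 6 gene lists (vertical axes) in each animal in order of Lep (horizontal axes), red for BPA and blue for vehicle, with the cut dashed. A single animal stands out for macrophage (vehicle animal 3, 44516) and smooth muscle (BPA animal 3, 47235), and duct transcripts stand out in both sets.

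Whether the Lep difference of a gene depended on exposure was tested with an interaction term. None of 12527 genes was called (0%, limma, adjusted p under 0.05), and 238 had an unadjusted p under 0.05. For a typical gene the 95% interval of this difference reached 0.74 log2 units to either side. Fggy, a carbohydrate kinase gene known as a subject of the study, was between 162 and 701 in the high-Lep set and between 153 and 696 in the low-Lep set, and its log2 difference was 0.28 (95% interval -0.67 to 1.23).

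The last comparison asked whether the score of methylated DNA differs between the same sets, a readout that the choice of animals did not use. Of 1000 windows of 100 bp, none was called (0%, limma, adjusted p under 0.05). An unadjusted p under 0.05 was found in 58, and 55 of these were higher in the high-Lep set. The 1000 windows are a small part of the genome, and how they were chosen was not examined. The score, between 0 and 1, was higher in the high-Lep set in 816 windows, with a median difference of 0.048. The mean score per animal was between 0.415 and 0.697 with a median of 0.471 in the high-Lep set, and between 0.332 and 0.489 with a median of 0.452 in the low-Lep set. BPA animal 1 of the high-Lep set, at 0.697, and BPA animal 3 of the low-Lep set, at 0.332, stood apart and the rest overlapped. Windows with a score of 0 made up 1.1% in BPA animal 1, 33.2% in BPA animal 3 and 13% to 22.2% in the others. Without BPA animal 1, 604 windows were higher, the median difference was 0.013 and 31 windows had an unadjusted p under 0.05.

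**Figure D5:**
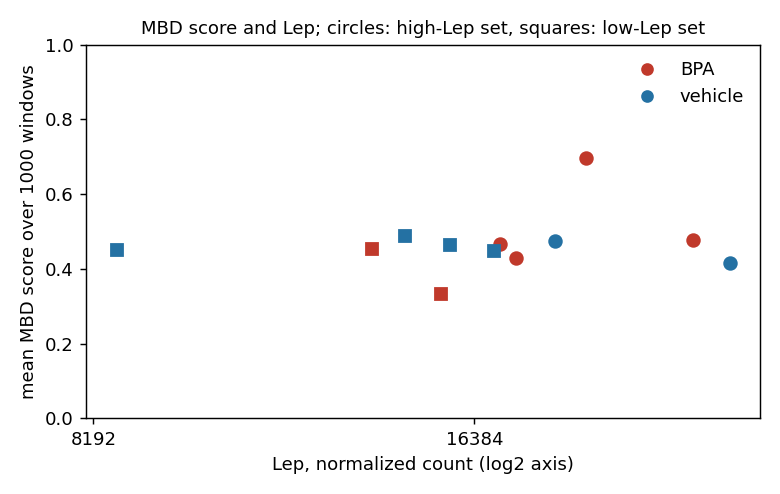
Mean MBD score over 1000 windows (vertical axis, 0 to 1) against Lep (horizontal axis, log2) in the 12 animals, circles for the high and squares for the low-Lep set, red for BPA and blue for vehicle. The animals lie between 0.415 and 0.489 except BPA animal 1 at 0.697 and BPA animal 3 at 0.332.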

How the data were processed

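For RNA, the authors deposited a signal per gene, read counts that they had normalized, and no raw counts. The authors used edgeR and the mm9 build, per the submitters' processing notes, and depth is unknown. Library sums were 9628801 to 11582945. The MBD values are the authors' deposited score per window of 100 bp. What the score measures is not given in the sources used here.

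Of 20624 genes, 12527 reached 10 in 6 or more libraries and were tested (Lep left out). Of these, 1 passed through a single set. Tests were two-sided on log2(value + 1), by limma 3.58.1 (R 4.3.3, trend on mean level), with Benjamini-Hochberg adjustment at 0.05. Fold changes on this scale understate changes of low genes. MBD scores were tested as they are, because the planned logarithm did not suit a score between 0 and 1. The limma script was checked on simulated data.

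Gene lists (39 lists, 649 genes, 640 found, 537 tested) and the ranking by Lep were chosen with earlier results of these data known. The named genes are the 5 per direction with the smallest p (12 if at least 5 were called), all tested members of the leptin signalling, adipokine and fat cell expansion lists, and up to 4 per other list. Rows with a date (25) or duplicate mark (512) in place of a name were tested and not named. RefSeq names and sequences are of GRCm38. 1 item that this rule takes is not reported here.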

Additional observations from a re-analysis of the deposited data

Results flagged for a closer look

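Within each set of 6 animals, the values of Lep, of 48 genes and of the mean MBD score were examined for 1 animal far from the rest. It was found in 12 cases, or 12%. Chance gives about 1 in 20 for independent, normally distributed values. The values here were not on the log scale, and the genes share the same animals. Whether 12% exceeds chance was therefore not tested. In the low-Lep set, vehicle animal 3 was highest in Ccl2 (430.7, next 111.8), Ptpn1 (504.2, next 239.7) and Stat3 (2977, next 2140). BPA animal 3 was highest in Lepr (480.8, next 229.1), vehicle animal 5 was highest in Spsb1 (332.5, next 265.3), and vehicle animal 6 was lowest in Fmr1 (3381, next 5925). In the high-Lep set, BPA animal 5 was highest in Lcn2 (3063, next 1171) and lowest in Cfd (8286, next 13838) and Nnat (2630, next 6557). BPA animal 1 was highest in Stat5a (289.9, next 214.4). The mean MBD score was highest in BPA animal 1 in the high-Lep set (0.697, next 0.477) and lowest in BPA animal 3 in the low-Lep set (0.332, next 0.449).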

How the results depend on the processing

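Between the sets, limma called no gene under any alternative that kept sets, and no MBD window under any alternative. Log2 Lep as a number called 3 genes and gave 1350 at an unadjusted p under 0.05, against 539 with sets, 863 with no filter and 246 with vehicle animals alone. With sets, leaving out each library gave 391 to 683. With log2 Lep as a number it gave 582, without vehicle animal 6, to 1794, without BPA animal 5. With the replicate block 0 genes were called and 495 had an unadjusted p under 0.05. The labels do not say that a number marks a shared litter. MBD windows with an unadjusted p under 0.05 numbered 58, 35 with log2 Lep, 36 with the replicate block and 31 to 74 leaving out each library. The slope called 0 to 4 genes leaving out each library, 0 without the 3 libraries highest in duct transcripts. Fmr1 was also lost with quantile normalization, no filter or without BPA animal 6. Genes whose sets did not overlap numbered 30, and 40 to 77 with 1 library fewer. They numbered 96 without the 2 animals at the cut and 172 without the 3 libraries highest in duct transcripts. All of these alternatives compare fewer animals. The Lep difference by exposure ran from -0.02 to 0.30. Of 4554 gene values under alternatives, 318 had the other sign. With an interval clear of 0 on either side these were Retnla (0.011 in vehicle animals alone) and Ccdc39 (-1.34 on log2 Lep, a cilia gene), and the cause was not tested. Of 897 list medians under alternatives, 13 moved by more than the spread between animals. Sequencing depth is unknown, so no counting error could be given.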
